A study of Mus musculus with 12 samples.

Results

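This account covers bone marrow haematopoietic stem and progenitor cells (HSPC) of RUNX1 mutant mice set against those of wild type mice, measured by RNA sequencing. The comparison holds 4 of the 12 libraries of the series, RUNX1 mutant HSPC libraries 1 and 2 and wild type HSPC libraries 1 and 2. A gene was a member when at least 2 of these 4 libraries gave it 1 TPM or more (the unit TPM scales each library's length-corrected transcript levels to a fixed total), which held for 11468 of the 28987 genes in the deposited table. Members nearest the threshold had 1.000204 to 1.00131 TPM in their second-highest library, and genes just outside it had 0.998141 to 0.999746 TPM. Of the members, 10316 reached 1 TPM in all 4 libraries and 523 in 3 of them, while 391 did so in both RUNX1 mutant libraries and neither wild type one. The reverse held for 56 members, and the last 182 passed through 1 library of each group.

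All mice had the strain background C57BL/6. The groups are RUNX1 mutant HSPC, CBL mutant HSPC and CBL/RUNX1 mutant HSPC, each with 2 libraries, and wild type HSPC with 2. The labels name the genotype but not the allele, how the mutation was introduced, or the age of the mice. Marrow came from individual mice, cells bearing CD117, the protein encoded by Kit, were enriched with a positive selection kit, and cells of the mutant clone were then sorted by FACS. Whether wild type cells went through a sort of the same kind is not given in the sources used here, so a difference in preparation and a difference in genotype cannot be told apart. In the title of the series the mutant cells are tied to myelodysplastic syndrome. With 2 libraries a group, every SE and p-value below rests on a spread pooled over the 4 HSPC groups.

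RUNX1 is a transcription factor that binds DNA together with its partner CBFB and is needed for the first blood stem cells of the embryo. In the adult marrow it acts in megakaryocyte maturation, in lymphocyte development and in the balance between stem cell and myeloid programmes, and its gene is recurrently mutated in myelodysplastic syndrome and acute myeloid leukaemia. CBL marks activated growth factor receptors such as KIT with ubiquitin, which limits their signal.

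Promoter sequences of 5 genes on which the results turn are shown here because both RUNX1 mutant libraries stood apart from both wild type libraries at each of these genes. Runx1, Cpa3 and Itga2b were higher in the mutant libraries, and Mecom and Cldn1 were lower. The sequences are from RefSeq (GRCm38.p6), run 5′ to 3′ on the gene's strand from 250 bases before to 50 bases after the annotated start, and all 5 lie on the minus strand. Capitals mark the RUNX core motif, searched as TGTGGT and TGCGGT on both strands. For Runx1 and Mecom the upstream of 2 annotated starts is shown.
Runx1 (chr16:92826025-92826324): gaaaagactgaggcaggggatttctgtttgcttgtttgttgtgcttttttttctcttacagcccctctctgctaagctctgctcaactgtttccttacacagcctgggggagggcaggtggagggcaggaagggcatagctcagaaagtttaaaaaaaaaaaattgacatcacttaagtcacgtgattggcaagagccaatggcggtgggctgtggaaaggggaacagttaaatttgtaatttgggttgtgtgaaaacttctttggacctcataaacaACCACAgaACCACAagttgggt
Cpa3 (chr3:20242132-20242431): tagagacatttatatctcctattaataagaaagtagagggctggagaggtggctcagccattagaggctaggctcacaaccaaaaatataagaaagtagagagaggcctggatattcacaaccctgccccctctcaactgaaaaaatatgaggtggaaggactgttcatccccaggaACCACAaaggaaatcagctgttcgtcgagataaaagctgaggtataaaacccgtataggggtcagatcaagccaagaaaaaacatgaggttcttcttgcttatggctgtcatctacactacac
Itga2b (chr11:102469834-102470133): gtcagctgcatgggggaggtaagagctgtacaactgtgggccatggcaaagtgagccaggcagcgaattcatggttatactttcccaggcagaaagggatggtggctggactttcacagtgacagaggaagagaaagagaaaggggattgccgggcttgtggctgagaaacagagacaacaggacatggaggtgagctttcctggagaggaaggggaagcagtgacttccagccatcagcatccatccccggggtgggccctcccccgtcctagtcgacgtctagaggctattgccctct
Mecom (chr3:30509710-30510009): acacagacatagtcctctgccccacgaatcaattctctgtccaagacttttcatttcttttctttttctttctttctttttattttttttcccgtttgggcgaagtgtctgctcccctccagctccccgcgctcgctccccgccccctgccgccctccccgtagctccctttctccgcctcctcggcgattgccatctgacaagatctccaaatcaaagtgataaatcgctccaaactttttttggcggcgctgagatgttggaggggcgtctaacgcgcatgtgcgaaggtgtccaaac
Cldn1 (chr16:26371790-26372089): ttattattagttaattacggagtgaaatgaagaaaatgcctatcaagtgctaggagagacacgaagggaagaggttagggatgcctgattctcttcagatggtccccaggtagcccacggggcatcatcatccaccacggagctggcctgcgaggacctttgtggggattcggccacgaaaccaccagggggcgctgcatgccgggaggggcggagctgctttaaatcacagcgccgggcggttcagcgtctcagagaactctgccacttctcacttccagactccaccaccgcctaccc
The Runx1 window holds 2 matches, which do not overlap, and the Cpa3 window holds 1, whereas these letters are not in the Itga2b, Mecom and Cldn1 windows. Among the first-listed promoters of all 27025 genes in the table, 6090 (22.5%) hold at least 1 match. A match is a description of the sequence and was not tested for binding.

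The 4 libraries were not equally alike. After scaling, RUNX1 mutant libraries 1 and 2 correlated at 0.940 over all genes tested, as a description, against 0.991 for wild type libraries 1 and 2. RUNX1 mutant library 2 correlated at 0.980 and 0.979 with the wild type libraries, against 0.919 and 0.918 for RUNX1 mutant library 1. The SD over genes of the log2 difference between replicates was 0.717 for RUNX1 mutant and 0.303 for wild type. Between the RUNX1 mutant libraries, 1364 members differed by at least 1 on the log2 scale, which is 2-fold, whereas 139 members did so between the wild type libraries. S100a8 and S100a9, the calprotectin subunits of neutrophils, made up 13.3% and 27.0% of all TPM in RUNX1 mutant libraries 1 and 2, against 28.9% and 31.4% in the wild type libraries. Neutrophil transcripts were thus abundant in all 4 libraries of cells labelled HSPC, and least so in RUNX1 mutant library 1. The scaling factors between libraries were 1.32 and 0.935 for RUNX1 mutant libraries 1 and 2, and 0.821 and 0.700 for the wild type libraries. Deposited TPM are given below per library, and differences are on the log2(scaled TPM + 1) scale. A gene with equal deposited TPM in all libraries therefore comes out lower in the mutant after scaling.

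The stem and progenitor markers were present in every library but not at one level. Kit, the receptor used for the selection, had 229 and 26.2 TPM in RUNX1 mutant libraries 1 and 2, against 25.6 and 24.5 TPM in the wild type libraries. Cd34 had 287 and 56.5 TPM in RUNX1 mutant libraries, against 23.4 and 22.6 TPM in wild type ones. Flt3, a receptor of early lymphoid and myeloid progenitors, had 49.3 and 7.22 TPM in RUNX1 mutant libraries, against 2.67 and 2.51 TPM in wild type libraries. Library 1 of the mutant was thus the highest of the 4 for Kit, Cd34 and Flt3, and library 2 lay near the wild type for Kit. The stem cell marker Ly6a went the other way, with 19.4 and 17.9 TPM in RUNX1 mutant libraries, against 44.6 and 44.1 TPM in wild type libraries. Because these are mixtures of cells, fewer cells of a type and less RNA per cell cannot be told apart in any value below.

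The gene that the labels name as mutant is given first. Runx1 had 170.2 and 45.3 TPM in RUNX1 mutant libraries 1 and 2, against 12.7 and 11.3 TPM in wild type libraries 1 and 2. Both mutant libraries lay above both wild type libraries, and the first was the higher of the mutant pair. The log2 difference was 2.26 ± 0.40 (SE, 2 libraries a group), with an adjusted p of 0.143 in limma, so Runx1 did not pass the threshold of 0.05. The same gene had 12.2 and 16.4 TPM in CBL mutant libraries and 257 and 248 TPM in CBL/RUNX1 mutant libraries. Runx1 passed the test in RUNX1 mutant against CBL mutant HSPC, with a log2 difference of 2.42 ± 0.40 and a limma adjusted p of 0.0472. In that contrast 1.22% of all genes tested were called. The labels name a RUNX1 mutation without its kind, so the level of the transcript does not check the genotype beyond setting these libraries apart from the libraries without it. Cbl had 24.9 and 32.1 TPM in RUNX1 mutant libraries, against 31.0 and 17.9 TPM in wild type libraries, with overlapping groups and a log2 difference of -0.28 ± 0.30. Its sign turned to 0.25 without scaling.

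Of the other RUNX genes and partners, the close relative Runx3 had 173 and 42.4 TPM in RUNX1 mutant libraries, against 14.9 and 10.7 TPM in wild type libraries. Its log2 difference was 2.14 ± 0.42 (limma adjusted p = 0.166). Runx2, the family member of bone, had 43.2 and 16.2 TPM in RUNX1 mutant libraries, against 8.95 and 6.71 TPM in wild type libraries. All 3 family members thus had both mutant libraries above both wild type ones, and for each of them library 1 was higher than library 2. The DNA-binding partner Cbfb had 78.9 and 69.7 TPM in RUNX1 mutant libraries, against 59.5 and 53.6 TPM in wild type libraries, a log2 difference of -0.15 ± 0.15 after scaling that did not pass. Over the 17 tested genes of the RUNX family and partners, 3 (Runx1, Runx3 and the partner Gata2) had the lower mutant library at least 2-fold above the higher wild type one, which 0.644% of all genes tested did, and the median log2 difference was 0.31, beside -0.03 over all 12421 genes tested.

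Across all genes, 6 of 12421 passed the test (0.0483%), 1 higher and 5 lower in RUNX1 mutant HSPC, and all 6 were members. Before adjustment, 2052 genes had a p under 0.05. Psma8 rose in the mutant, and Mecom, Cldn1, Gm1673, Gm16569 and the unnamed gene ENSMUSG00000076660 fell. Psma8 was a member through the RUNX1 mutant libraries alone, and Cldn1 and Gm16569 through the wild type libraries alone. The mutant libraries were close to each other at these genes, with the widest difference at Gm16569, -0.68 on the log2 scale (library 1 minus library 2). Because the test weighs a difference against the spread within groups, this closeness follows in part from the call.

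**Figure D1:**
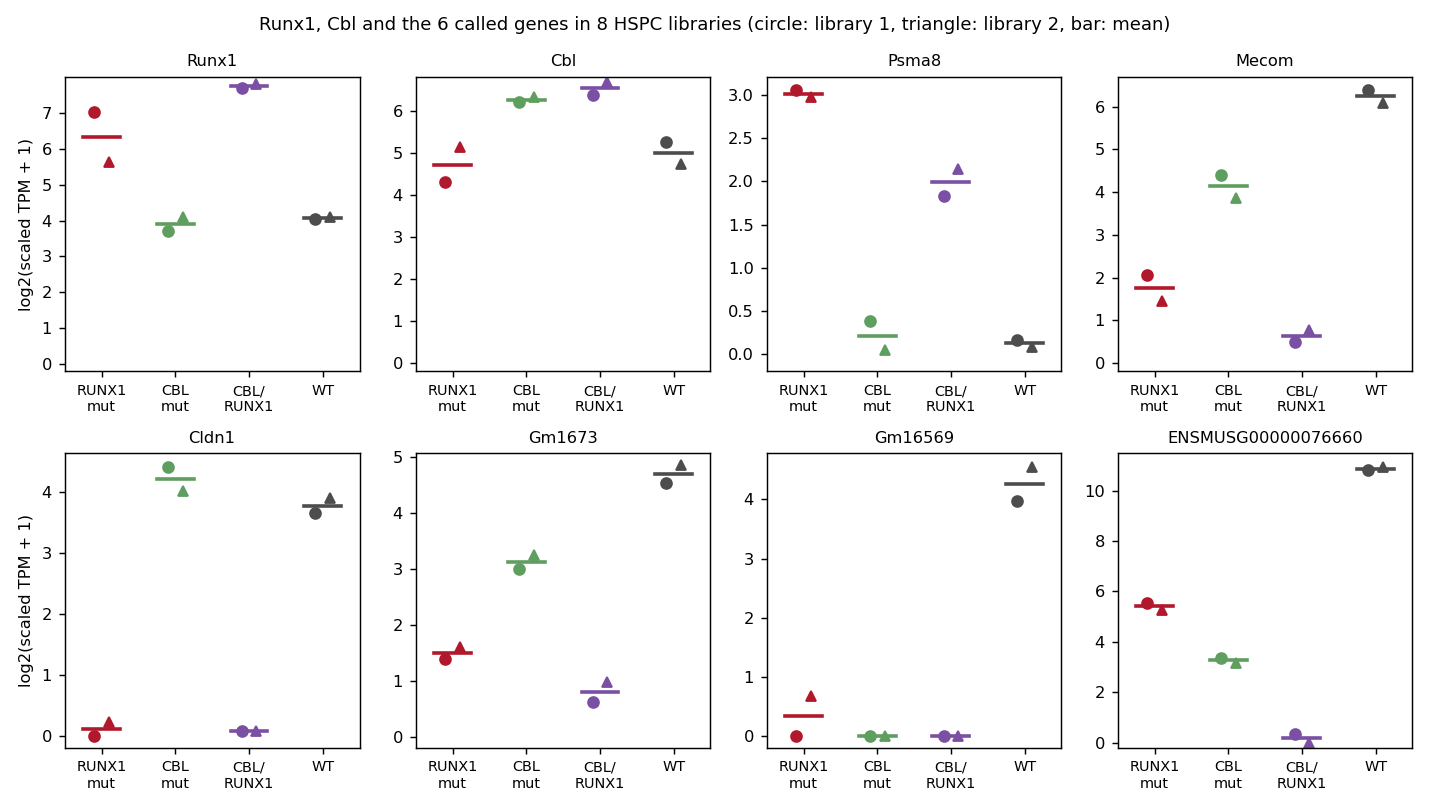
Level of Runx1, Cbl and the 6 called genes in RUNX1 mutant, CBL mutant, CBL/RUNX1 mutant and wild type HSPC, as log2(scaled TPM + 1) on the vertical axis. Circles are library 1, triangles library 2 and bars the mean of 2 libraries. For each called gene both RUNX1 mutant points lie on the same side of both wild type points, Psma8 above and the other 5 below, whereas the Cbl points of these groups overlap.

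Psma8 encodes an alpha subunit of the 20S proteasome that is known from the testis. It had 9.66 and 6.40 TPM in RUNX1 mutant libraries, against 0.102 and 0.0401 TPM in wild type libraries. Both mutant libraries were above both wild type ones, and they were close to each other after scaling. The log2 difference was 2.89 ± 0.23, with a limma adjusted p of 0.00854. Psma8 also had 0.301 and 0.0318 TPM in CBL mutant libraries and 3.17 and 3.84 TPM in CBL/RUNX1 mutant libraries. It was higher in RUNX1 mutant than in either of these groups, by 2.80 ± 0.23 against CBL mutant (limma adjusted p = 0.00700) and by 1.03 ± 0.23 against CBL/RUNX1 mutant (limma adjusted p = 0.0411). In the contrast with CBL/RUNX1 mutant HSPC 9.09% of all genes tested were called. None of the other 16 tested subunits of the 20S proteasome was called, and the median of all 17 was -0.35 with scaling and 0.20 without it. Psma7, its counterpart in other tissues, had 216 and 161 TPM in RUNX1 mutant libraries, against 172 and 173 TPM in wild type libraries. After scaling both mutant libraries lay below both wild type ones at Psma7.

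Mecom (chr3:29951296-30548008, GRCm38) encodes EVI1 and related zinc finger factors that sustain blood stem cells. It had 4.15 and 1.62 TPM in RUNX1 mutant libraries, against 68.5 and 47.3 TPM in wild type libraries. The groups lay far apart, with the higher mutant library at 4.05 below the lower wild type library on the log2 scale. The log2 difference was -4.50 ± 0.27, with a limma adjusted p of 0.00291. CBL mutant libraries had 20.2 and 13.8 TPM and CBL/RUNX1 mutant libraries 0.510 and 0.786 TPM. Mecom was lower in RUNX1 mutant than in CBL mutant HSPC by a log2 difference of -2.38 ± 0.27 (limma adjusted p = 0.0154), and higher than in CBL/RUNX1 mutant HSPC by 1.12 ± 0.27 (limma adjusted p = 0.0494).

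Cldn1 (chr16:26356642-26371841, GRCm38) encodes claudin 1, a protein of tight junctions. It was listed at 0 and 0.156 TPM in RUNX1 mutant libraries, against 9.49 and 9.67 TPM in wild type libraries. Both mutant libraries were near the bottom of the scale. The log2 difference was -3.66 ± 0.22, with a limma adjusted p of 0.00291. CBL mutant libraries had 20.3 and 15.4 TPM and CBL/RUNX1 mutant libraries 0.0653 and 0.0657 TPM. Cldn1 was lower in RUNX1 mutant than in CBL mutant HSPC (log2 difference -4.10 ± 0.22, limma adjusted p = 0.00159), whereas its difference from CBL/RUNX1 mutant HSPC, 0.03 ± 0.22, did not pass (limma adjusted p = 0.940). Among 22 tested genes of adhesion and trafficking, Cldn1 was the 1 called, and the list's median was -0.02 (0.52 without scaling).

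The remaining 3 called genes have no described role here. Gm1673 (chr5:33983433-33985013, GRCm38) had 2.13 and 1.91 TPM in RUNX1 mutant libraries, against 18.2 and 19.6 TPM in wild type libraries, and fell by 3.20 ± 0.22 on the log2 scale (limma adjusted p = 0.00484). The pseudogene Gm16569 (chr17:3053159-3054111, GRCm38) was listed at 0 and 0.566 TPM in RUNX1 mutant libraries, against 12 and 15.7 TPM in wild type libraries, and fell by 3.92 ± 0.31 (limma adjusted p = 0.00854). It was listed at 0 in all 4 libraries of the CBL mutant and CBL/RUNX1 mutant groups, and RUNX1 mutant library 2 was the 1 mutant library of the 6 above 0. Gm16569 thus entered the test only through the wild type libraries, the group where it was high, which limits what its call can show. ENSMUSG00000076660 had 59.7 and 35.4 TPM in RUNX1 mutant libraries, against 1487 and 1361 TPM in wild type libraries, a log2 difference of -5.47 ± 0.17 (limma adjusted p = 7.19e-05). This identifier has no symbol in the annotation used, and no role is given to it. Reads of a pseudogene can be shared with a near-identical copy, so the value of Gm16569 is uncertain.

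Leaving out either wild type library left 1 gene called, ENSMUSG00000076660, and so did a fit of the 4 compared libraries alone. The other 5 kept their direction there, with limma adjusted p-values of 0.0844 to 0.182 without wild type library 1 and 0.108 to 0.217 without wild type library 2. Without RUNX1 mutant library 1, 60 genes were called (26 higher, 34 lower), and without RUNX1 mutant library 2, 3628 were called (1664 higher, 1964 lower). These fits treat the lone library as having the spread of the remaining groups.

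Since the mutant libraries differed so widely, changes that both share were also described by a gap. A gene was separated higher when its lower RUNX1 mutant library exceeded its higher wild type library by at least 1 on the log2 scale, and separated lower in the reverse case. By this rule 80 genes were separated higher (0.644% of all genes tested) and 92 lower (0.741%), of which 79 and 92 were members. The split was 138 higher and 52 lower without scaling. The members just inside and just outside the rule had gaps of 1.00096 and 0.99905 on the higher side, and 1.00409 and 0.99345 on the lower side. This is a description with no test, and the limma adjusted p of these members ran from 0.00854 to 0.293 on the higher side and from 7.19e-05 to 0.373 on the lower side. Of the 79 members separated higher, 65 were further from wild type in library 1, and the median distance from the wild type mean was 2.91 in library 1 and 1.43 in library 2. Of the 92 separated lower, 78 were further in library 1, with medians of -2.90 and -1.63. The mutant libraries lay within 1 of each other at 29 of the 79 and 45 of the 92.

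**Figure D2:**
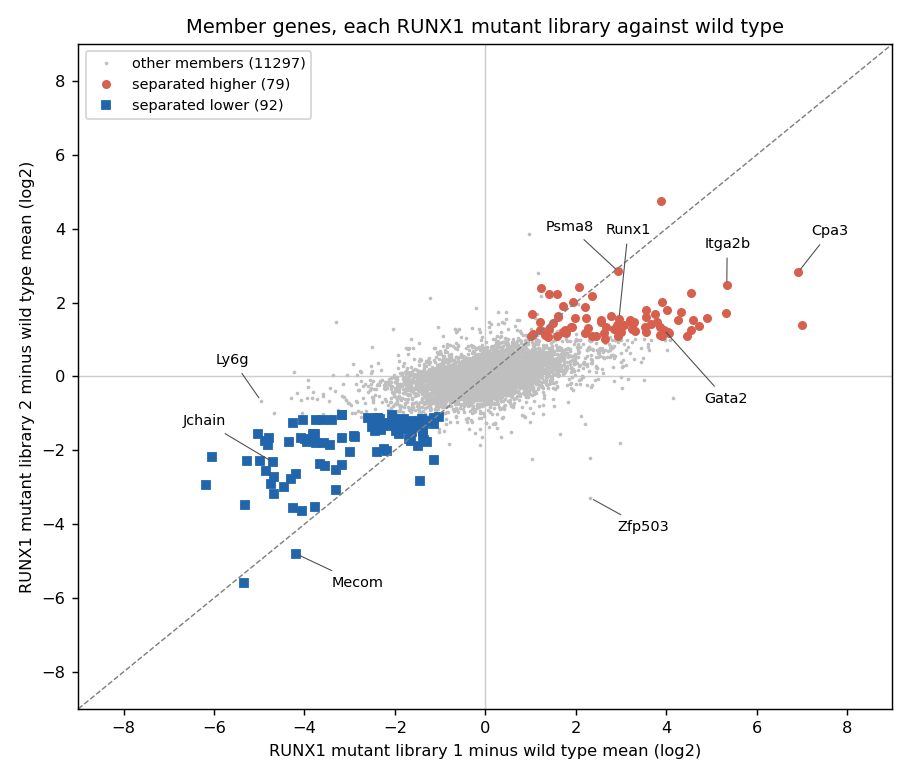
Log2 difference of each member gene from the wild type mean in RUNX1 mutant library 1 (horizontal axis) and library 2 (vertical axis), with the dashed line where both are equal. Red circles are the 79 members separated higher and blue squares the 92 separated lower. Most coloured points lie on the library 1 side of the dashed line, as library 1 was further from wild type at 65 of the 79 and 78 of the 92.

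Taken without regard to the other library, mutant library 1 had 814 members higher and 875 lower than the wild type mean by at least 1, and library 2 had 167 higher and 166 lower. Both libraries passed this distance on the higher side at 111 members and on the lower side at 119. They passed it on opposite sides at 13 members, 8 with library 1 higher and 5 with library 1 lower.

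Among stem cell regulators, 3 of 17 tested genes were separated higher and 1, Mecom, lower (0.644% and 0.741% of all genes tested were). Gata2, a transcription factor of stem cells and of the mast cell line, had 155 and 16.4 TPM in RUNX1 mutant libraries, against 5.37 and 4.82 TPM in wild type libraries. Meis1, a homeobox partner of HOX proteins in stem cells, had 78.2 and 7.60 TPM in RUNX1 mutant libraries, against 1.50 and 1.75 TPM in wild type libraries. Hlf, a leucine zipper factor of stem cells, had 56.2 and 4.79 TPM in RUNX1 mutant libraries, against 1.29 and 1.20 TPM in wild type libraries. Each had both mutant libraries above both wild type ones, with library 1 roughly an order of magnitude above library 2. Their log2 differences were 2.60 ± 0.75, 2.90 ± 0.84 and 2.63 ± 0.80, with limma adjusted p-values of 0.236, 0.237 and 0.245. Over the 17 regulators the median difference from wild type was 1.06 in library 1 and 0.06 in library 2.

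Among the surface genes of stem and progenitor cells, 3 of 16 were separated higher and 1 lower (0.644% and 0.741% of all genes tested were). Their median was 1.05 (1.89 in library 1 and 0.39 in library 2). Esam, an adhesion molecule of stem cells and endothelium, had 16.7 and 2.87 TPM in RUNX1 mutant libraries, against 0.0613 and 0.197 TPM in wild type libraries. Cd27, a receptor of the tumour necrosis factor family on progenitors, had 157 and 21.1 TPM in RUNX1 mutant libraries, against 6.75 and 7.29 TPM in wild type libraries. Esam and Cd27 had both mutant libraries above both wild type ones. Ly6a, which encodes the stem cell antigen Sca-1, went the other way, with 19.4 and 17.9 TPM in RUNX1 mutant libraries, against 44.6 and 44.1 TPM in wild type libraries. The mutant libraries were alike at Ly6a, and its log2 difference was -1.74 ± 0.25 (limma adjusted p = 0.0979). Kit itself was not separated, with differences from the wild type mean of 2.36 in library 1 and -0.23 in library 2.

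**Figure D3:**
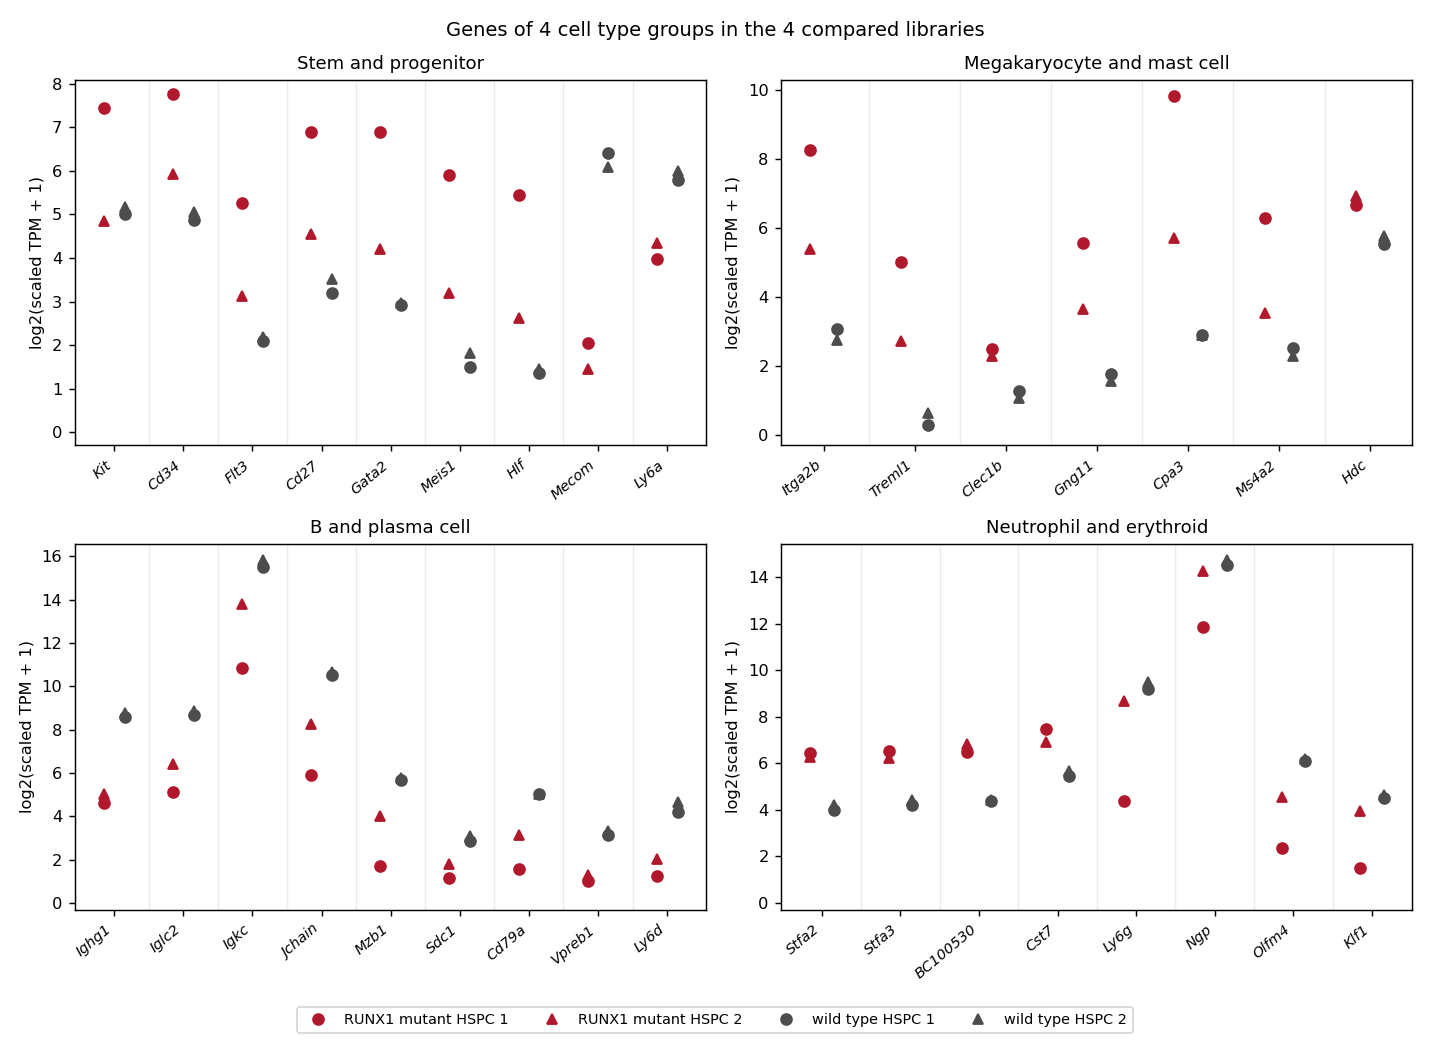
Levels of genes of 4 cell type groups in RUNX1 mutant libraries (red) and wild type libraries (grey), as log2(scaled TPM + 1) on the vertical axis, with circles for library 1 and triangles for library 2. At Gata2, Itga2b and Cpa3 both mutant points lie above wild type with library 1 on top, at Mecom and the immunoglobulin genes both lie below, and at Ly6g, Ngp and Klf1 library 1 is much further below wild type than library 2.

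Megakaryocyte and platelet genes were higher in both mutant libraries. Of 17 tested genes, 4 were separated higher and 0 lower (0.644% and 0.741% of all genes tested were). Of the 17, 13 had both mutant libraries above both wild type ones (22.1% of all genes tested did). The median was 1.15 (1.52 in library 1 and 0.76 in library 2). Itga2b, the integrin alpha chain of the platelet fibrinogen receptor, had 400.3 and 38.4 TPM in RUNX1 mutant libraries, against 6.07 and 4.04 TPM in wild type libraries. Treml1, a receptor of platelet granules, had 40.7 and 5.25 TPM in RUNX1 mutant libraries, against 0.185 and 0.380 TPM in wild type libraries. Clec1b, the platelet receptor for podoplanin, had 6.05 and 3.60 TPM in RUNX1 mutant libraries, against 1.17 and 0.766 TPM in wild type libraries. Both mutant libraries were above both wild type ones at each of these genes, and at Clec1b they were close to each other. The log2 differences were 3.91 ± 0.80 for Itga2b, 3.40 ± 0.66 for Treml1 and 1.21 ± 0.23 for Clec1b, with limma adjusted p-values of 0.169, 0.161 and 0.148. The platelet chemokine Pf4 had 47.0 and 24.0 TPM in RUNX1 mutant libraries, against 15.4 and 17.0 TPM in wild type libraries, a log2 difference of 0.48 ± 0.36. The summed level of the list was 744 and 153 TPM in RUNX1 mutant libraries, against 66.5 and 59.7 TPM in wild type libraries. The G protein subunit Gng11 had 61.2 and 10.9 TPM in RUNX1 mutant libraries, against 1.95 and 1.36 TPM in wild type libraries. Gng11 passed the test against CBL mutant HSPC, with a log2 difference of 4.04 ± 0.54 (limma adjusted p = 0.0275).

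Among mast cell, basophil and eosinophil genes, 2 of 15 were separated higher and 0 lower (0.644% and 0.741% of all genes tested were). The median was 0.12 (-0.21 in library 1 and 0.45 in library 2). The members went both ways between the mutant libraries, 4 being at least 2-fold higher in library 1 and 7 at least 2-fold lower. The summed level of the list of 20 genes was 1784 and 710.4 TPM in RUNX1 mutant libraries, against 351 and 344 TPM in wild type libraries. Cpa3, the carboxypeptidase of mast cell granules that is also made by progenitors, had 1181 and 48.2 TPM in RUNX1 mutant libraries, against 5.27 and 4.52 TPM in wild type libraries. Ms4a2, the beta chain of the IgE receptor, had 100.3 and 9.95 TPM in RUNX1 mutant libraries, against 3.89 and 2.74 TPM in wild type libraries. Hdc, the enzyme that makes histamine, had 131 and 112 TPM in RUNX1 mutant libraries, against 37.2 and 37.3 TPM in wild type libraries. The mutant libraries lay far apart at Cpa3 and Ms4a2 and were alike at Hdc. The log2 differences were 4.87 ± 1.11, 2.50 ± 0.76 and 1.14 ± 0.17 (limma adjusted p = 0.185, 0.245 and 0.131). Wild type lay between the mutant libraries at the eosinophil granule gene Prg2, which had 94.2 and 341 TPM in RUNX1 mutant libraries, against 207 and 207 TPM in wild type libraries.

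The stefin A genes encode small inhibitors of cysteine proteases in neutrophils, and the 5 of them on the mature neutrophil list were all separated higher. Family members outside that list were not counted. Stfa2 had 115 and 71.4 TPM in RUNX1 mutant libraries, against 12.4 and 12.1 TPM in wild type libraries. Stfa3 had 120.4 and 68.6 TPM in RUNX1 mutant libraries, against 14.5 and 14.4 TPM in wild type libraries. BC100530 had 117 and 105 TPM in RUNX1 mutant libraries, against 16.4 and 14.5 TPM in wild type libraries. Library 1 minus library 2 was 0.19, 0.31 and -0.34 on the log2 scale for these 3 genes, and both libraries lay far above wild type. Stfa1 and Stfa2l1 were separated higher as well, with wider differences between the mutant libraries of -1.14 and -0.81. This makes 5 of 21 tested genes of mature neutrophils, beside 0.644% of all genes tested. None of these 5 stefin genes passed the test, with limma adjusted p-values of 0.187 to 0.293. The family members are near-identical, so the division of reads among them is uncertain. In CBL mutant HSPC Stfa2 itself differed between the libraries, with 56.0 TPM in library 1 and 10.9 TPM in library 2.

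Other neutrophil genes behaved differently from the stefins. The secondary and tertiary granule genes had a median difference from wild type of -2.24 in mutant library 1 and -0.16 in library 2, and all 15 were lower in library 1 than in library 2. Ngp, a granule protein of maturing neutrophils, had 4941 and 18749 TPM in RUNX1 mutant libraries, against 19672 and 19511 TPM in wild type libraries. Olfm4 had 5.40 and 21.2 TPM in RUNX1 mutant libraries, against 54.8 and 49.8 TPM in wild type libraries, and was the 1 gene of this list separated lower. Of the primary granule genes, which mark earlier neutrophil stages, Cst7 was separated higher and Prss57 lower among 13 tested. Of all genes tested, 0.644% were separated higher and 0.741% lower. Cst7, an inhibitor of cysteine proteases, had 235 and 112 TPM in RUNX1 mutant libraries, against 35.2 and 35.1 TPM in wild type libraries. Prss57, a serine protease of these granules, had 23.7 and 31.4 TPM in RUNX1 mutant libraries, against 58.8 and 55.3 TPM in wild type libraries. The granule enzyme Mpo had 3116 and 2371 TPM in RUNX1 mutant libraries, against 2188 and 1867 TPM in wild type libraries. After scaling, however, both mutant libraries lay below both wild type ones at Mpo. Over the 13 genes the median was -0.23 (0.32 without scaling), and 8 had both mutant libraries below both wild type ones, beside 27.0% of all genes tested.

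Erythroid genes followed the same division between the mutant libraries. Their median difference from wild type was -1.68 in library 1 and -0.22 in library 2. No gene of 19 was separated in either direction, though 11 had both mutant libraries below both wild type ones (27.0% of all genes tested did). The summed level of the list was 643 and 1765 TPM in RUNX1 mutant libraries, against 932 and 906 TPM in wild type libraries, so library 2 was above wild type in the sum. Klf1, a master factor of red cells, had 2.34 and 13.4 TPM in RUNX1 mutant libraries, against 17.9 and 16.5 TPM in wild type libraries. Library 1 was far below wild type at Klf1 (-3.09) and library 2 less so (-0.63). The 27 genes of S phase and mitosis had medians of -0.87 in library 1 and -0.11 in library 2, and their median over both, -0.43, turned to 0.11 without scaling. In library 1 the shares of the TPM taken by S100a8 and S100a9 and by erythroid genes were both below wild type. Erythroid genes took 0.0665% there, against 0.0958% and 0.0930% in wild type libraries. The share of S phase and mitosis genes in library 1, 0.237%, lay between the wild type values of 0.251% and 0.228%. The part of cell composition in the differences of library 1 was not tested.

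Immunoglobulin and plasma cell genes formed a large block among the members separated lower. Of the 22 tested genes annotated as immunoglobulin, 16 were separated lower and 0 higher, beside 0.741% and 0.644% of all genes tested. Their median was -3.14 (-4.32 in library 1 and -1.79 in library 2). Immunoglobulin genes took 0.410% and 2.16% of all TPM in RUNX1 mutant libraries, against 6.41% and 6.63% in wild type libraries. Igkc, the constant region of the kappa light chain, had 2443 and 13353 TPM in RUNX1 mutant libraries, against 38636 and 40304 TPM in wild type libraries. Ighg1, a heavy chain of the IgG class, had 31.2 and 29.6 TPM in RUNX1 mutant libraries, against 316 and 309 TPM in wild type libraries. Jchain, which joins antibody polymers, had 77.1 and 288 TPM in RUNX1 mutant libraries, against 1204 and 1138 TPM in wild type libraries. At all 3 genes both mutant libraries were below both wild type ones, and at Ighg1 the mutant libraries were alike. The log2 differences were -3.34 ± 0.85, -3.86 ± 0.49 and -3.51 ± 0.68, with limma adjusted p-values of 0.212, 0.0721 and 0.161. The heavy chain of IgM was an exception, as Ighm had 51.4 and 1019.6 TPM in RUNX1 mutant libraries, against 311 and 286 TPM in wild type libraries. Ighg3 had 1.40 and 37.8 TPM in RUNX1 mutant libraries, against 29.8 and 27.1 TPM in wild type libraries.

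The list of plasma cell genes holds some of the same immunoglobulin genes. Of its 17 tested genes, 10 were separated lower and 0 higher (0.741% and 0.644% of all genes tested were). Their summed level was 3086 and 15801 TPM in RUNX1 mutant libraries, against 43476 and 44841 TPM in wild type libraries, and none was at 0. Mzb1, a chaperone of antibody secretion, had 3.04 and 14.3 TPM in RUNX1 mutant libraries, against 40.7 and 37.8 TPM in wild type libraries. Sdc1, the plasma cell surface proteoglycan CD138, had 1.64 and 2.36 TPM in RUNX1 mutant libraries, against 5.10 and 5.30 TPM in wild type libraries. Xbp1, a secretory factor that many cells use, was not separated, with 188 and 138 TPM in RUNX1 mutant libraries, against 128 and 113 TPM in wild type libraries. After scaling both mutant libraries lay slightly below both wild type ones at Xbp1. Immunoglobulin levels were also low in the other mutant groups, as Ighg2c had 36.5 and 75.1 TPM in RUNX1 mutant libraries, 1.72 and 4.22 TPM in CBL mutant libraries and 0 in both CBL/RUNX1 mutant libraries, against 582 and 531 TPM in wild type libraries. RUNX1 mutant HSPC was above CBL mutant HSPC at Ighg2c by 3.69 ± 0.48 (limma adjusted p = 0.0267). The part of plasma cells in the wild type libraries in these differences was not tested.

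B cell genes were mostly lower in both mutant libraries. Of 15 tested, 7 were separated lower and 0 higher (0.741% and 0.644% of all genes tested were). Of the 15, 12 had both mutant libraries below both wild type ones (27.0% of all genes tested did). The median was -1.44 in library 1 and -1.12 in library 2. Single genes still differed between the mutant libraries, 5 being at least 2-fold higher in library 1 and 2 at least 2-fold lower. Vpreb1 and Igll1 encode the surrogate light chain of B cell precursors. Vpreb1 had 1.34 and 1.35 TPM in RUNX1 mutant libraries, against 6.53 and 6.39 TPM in wild type libraries. Igll1 had 0.318 and 1.30 TPM in RUNX1 mutant libraries, against 6.84 and 6.62 TPM in wild type libraries. Ly6d, a surface marker of B lineage progenitors, had 1.85 and 2.93 TPM in RUNX1 mutant libraries, against 14.2 and 17.2 TPM in wild type libraries. Both mutant libraries were low at all 3 genes, and the wild type levels were modest. Their log2 differences were -2.10 ± 0.73, -2.52 ± 0.77 and -2.78 ± 0.37 (limma adjusted p = 0.260, 0.245 and 0.0767). Ly6d was also lower than in CBL mutant HSPC (log2 difference -2.23 ± 0.37, limma adjusted p = 0.0472). Dntt, the template-free polymerase of early lymphoid cells, did not follow, with 95.4 and 7.63 TPM in RUNX1 mutant libraries, against 6.50 and 5.92 TPM in wild type libraries. The summed level of the whole list of 20 genes was 142 and 44.2 TPM in RUNX1 mutant libraries, against 105 and 99.6 TPM in wild type libraries, and at most 1 gene was at 0 in any of these libraries.

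Several members separated lower are in none of the cell type lists, and the cells they came from were not tested. Stk39, a kinase that regulates ion transporters, had 0.295 and 9.97 TPM in RUNX1 mutant libraries, against 62.8 and 70.5 TPM in wild type libraries. Lmo1, a LIM-only cofactor of transcription, had 0.345 and 3.61 TPM in RUNX1 mutant libraries, against 24.5 and 23.1 TPM in wild type libraries. Spp1, which encodes osteopontin, had 0.195 and 2.17 TPM in RUNX1 mutant libraries, against 15.4 and 14.7 TPM in wild type libraries. Library 1 was the lowest of the 4 at each, and library 2 was still several fold below wild type. Cystm1 had 0.0819 and 1.81 TPM in RUNX1 mutant libraries, against 18.5 and 15.6 TPM in wild type libraries, with the smallest limma adjusted p of these, 0.0721. The lectin-like gene Clec2f had 0.402 and 1.72 TPM in RUNX1 mutant libraries, against 14.1 and 8.34 TPM in wild type libraries. Lmo1 and Clec2f were lower in RUNX1 mutant than in CBL mutant HSPC as well (log2 differences -4.03 ± 0.56 and -3.34 ± 0.44, limma adjusted p = 0.0288 and 0.0267). Spp1 was lower than in CBL/RUNX1 mutant HSPC (log2 difference -3.33 ± 0.70, limma adjusted p = 0.0377).

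Of the other genes with the widest gap on the higher side, Trmt112-ps2, a pseudogene, had 20.3 and 27.0 TPM in RUNX1 mutant libraries and at most 0.166 TPM in wild type libraries. Its value is uncertain for the same reason as that of Gm16569. Ctla2a, which encodes a protein similar to cathepsin propeptides, had 101 and 14.9 TPM in RUNX1 mutant libraries, against 3.13 and 2.68 TPM in wild type libraries. Adgrl4, an adhesion receptor of endothelium, had 136 and 15.2 TPM in RUNX1 mutant libraries, against 3.23 and 3.14 TPM in wild type libraries. Otos had 35.8 and 5.35 TPM in RUNX1 mutant libraries, against 0.747 and 0.896 TPM in wild type libraries. The last 3 shared the order seen at Itga2b, with library 1 above library 2 and both above wild type.

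Some genes set the mutant libraries against each other. Zfp503, a zinc finger repressor, had 67.5 and 0.0686 TPM in RUNX1 mutant libraries 1 and 2, against 7.69 and 6.73 TPM in wild type libraries. Cdkn1c, the cyclin-dependent kinase inhibitor p57 of quiescent stem cells, had 51.9 and 0.423 TPM in RUNX1 mutant libraries, against 3.30 and 2.92 TPM in wild type libraries. Wild type lay between the mutant libraries at both genes. Prnp, the prion protein gene, had 235 and 5.37 TPM in RUNX1 mutant libraries, against 6.59 and 7.17 TPM in wild type libraries. Slc35d3, needed for platelet dense granules in mice, had 194 and 1.92 TPM in RUNX1 mutant libraries, against 0.185 and 0.0725 TPM in wild type libraries. Slc18a2, the vesicular transporter of histamine and other monoamines, had 151 and 9.71 TPM in RUNX1 mutant libraries, against 3.06 and 2.14 TPM in wild type libraries. The last 2 were separated higher in spite of the difference between the mutant libraries, with log2 differences between library 1 and library 2 of 5.60 and 3.34.

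In the other direction, Ly6g, the neutrophil surface antigen, had 26.2 and 384 TPM in RUNX1 mutant libraries, against 482 and 504 TPM in wild type libraries. St3gal5, the synthase of the ganglioside GM3, had 4.98 and 54.1 TPM in RUNX1 mutant libraries, against 55.9 and 51.8 TPM in wild type libraries. Kel, a red cell blood group gene, had 0.164 and 10.2 TPM in RUNX1 mutant libraries, against 10.1 and 6.33 TPM in wild type libraries. Library 2 lay much nearer wild type than library 1 at these genes. Mt2, a metallothionein, had 2.86 and 31.7 TPM in RUNX1 mutant libraries, against 75.0 and 79.4 TPM in wild type libraries, and was separated lower.

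The gene lists can be set side by side by their medians, beside -0.03 for all genes. Counts of separated genes stand beside 0.644% higher and 0.741% lower over all genes tested. In both mutant libraries plasma cell genes (-3.30 and -1.16) and B cell genes lay well below wild type, and megakaryocyte and platelet genes lay above it. HOX, MEIS and PBX genes had a median of 0.58 over 11 tested, with Meis1 separated higher, and growth factor receptors had 0.24 over 19, with 1 separated higher. Monocyte and macrophage genes had a median of -0.31 over 20, myeloid transcription factors -0.21 over 16, NADPH oxidase genes -0.67 over 7 and MHC class II and dendritic cell genes -0.07 over 15, each with 0 separated. T and natural killer cell genes had a median of -0.32 over 12 tested, and Nkg7, a cytotoxic granule gene, was separated lower.

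Known RUNX1 target genes went both ways, with a median of -0.06 over 14 tested genes. Of these, 2 were separated higher, Itga2b among them, and 0 lower (0.644% and 0.741% of all genes tested were). Both mutant libraries lay above both wild type ones at 6 of the 14 and below at 4, beside 22.1% and 27.0% of all genes tested. Interferon-stimulated genes had medians of 0.07 in library 1 and -0.57 in library 2, and 1 of 22, Ifi27l2a, was separated lower. Ribosomal protein genes had a median of -0.01 over 74 tested and ribosome biogenesis genes -0.25 over 20, with 0 separated in either. The NF-kB, TLR and inflammation genes, p53 target genes, BCL2 family genes and RAS-MAPK output genes had medians between -0.13 and 0.07, each with 0 separated. Without scaling, an alternative for the lists that was chosen after seeing the data, the median of all genes was 0.45, a shift to which every direction is relative. In that setting the medians of the mature neutrophil (0.24), monocyte (0.06), myeloid transcription factor (0.17), MHC class II (0.37), RUNX1 target (0.44), interferon (0.21), ribosomal protein (0.53), ribosome biogenesis (0.29), NF-kB (0.45), p53 (0.39) and BCL2 (0.35) lists turned positive.

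**Figure D4:**
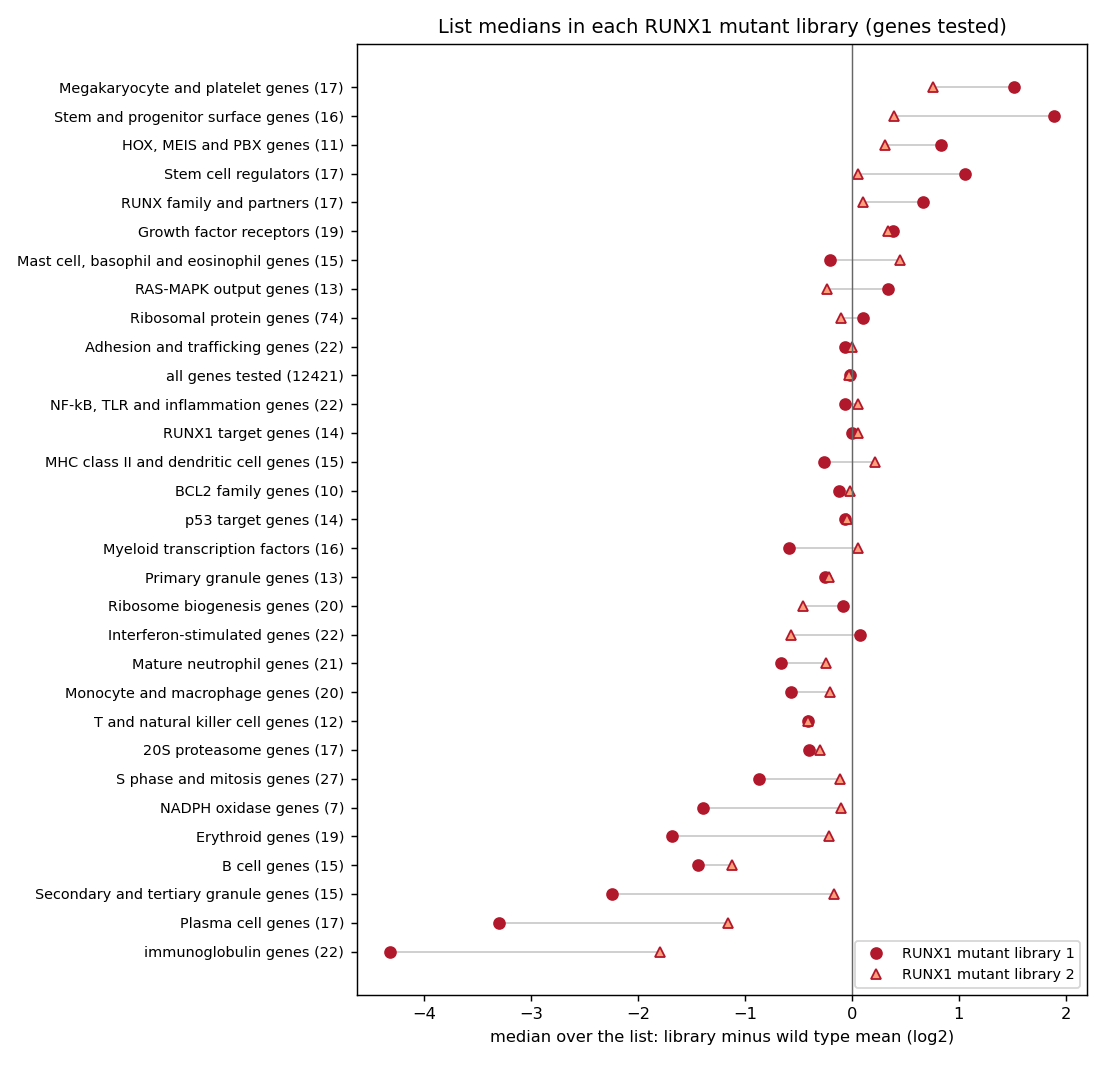
Median log2 difference from the wild type mean for each gene list in RUNX1 mutant library 1 (red circles) and library 2 (light triangles), with the number of genes tested beside each name and all genes tested as a row. The points of a list lie far apart for secondary granule, erythroid and stem and progenitor surface genes and close for B cell genes (-1.44 and -1.12), and close medians can hold genes that differ between the libraries in both directions.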

How the data were processed

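RNA from marrow cells was sequenced on an Illumina instrument, and per the submitters' processing notes bcl2fastq, CASAVA 1.8, kallisto and the mouse build mm10 were used. The deposited values are TPM per Ensembl gene in 1 table of the whole series. The TPM sum of each HSPC library was 965476 to 975500, and sequencing depth is unknown, so no counting interval can be given. Symbols for 27458 of the 28987 identifiers (94.7%) came from a reference list of gene names. Positions and gene types came from GENCODE annotation of GRCm38, the assembly behind mm10.

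TPM were divided by trimmed-mean factors (trims 0.3 and 0.05), and log2(scaled TPM + 1) was fitted with limma 3.58.1 in R 4.3.3, one mean for each of 4 HSPC groups, with 4 residual degrees of freedom, a trended and robust prior, and Benjamini-Hochberg adjustment over the 12421 genes with 1 TPM or more in at least 2 of 8 libraries. A gene was called at an adjusted p under 0.05. The scripts were tested on simulated data. A fold change on this scale understates the change of low genes. Replicates are libraries of individual mice per the labels, and samples were not taken as pairs by replicate number.

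The named genes are Runx1, Cbl, all called genes, the 12 widest gaps in each direction among expressed members, up to 3 genes in each direction from each gene list, and the 8 genes in each direction that differed most between the mutant libraries. Further list members, Ighm, Ighg3, Runx2, Cbfb, Psma7, Pf4, Mpo, Prg2 and Xbp1 among them, were added after their values were seen. The members and lists were chosen with earlier results of these data known. Other scalings, pseudocounts, filters, gaps, fits and left-out libraries were tried. Some of the named genes are not reported here.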

Additional observations from a re-analysis of the deposited data

How the results depend on the processing

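Of the alternatives to the 6 calls, those within 1.5 times were RLE scaling and upper-quartile scaling (6 each), a filter of 5 TPM (4), members alone (6) and no trend or robust prior (9). Without scaling 14 genes were called, at pseudocount 0.1 3, at pseudocount 5 19, with no filter 14, with the 4 compared libraries alone 1 and with array weights 10. Leaving out 1 library at a time gave 1 to 3628 calls, 1 without either wild type library. With the replicate number as a block 7 were called, but the labels give the numbers no shared source, and same-numbered deviations correlated at 0.056 between RUNX1 mutant and wild type, at 0.128, 0.162 and 0.186 among the mutant groups and at -0.00476 and 0.0802 between the other mutant groups and wild type, so the samples were not taken as pairs. At pseudocount 0.1 ENSMUSG00000076660, Gm16569 and Psma8 lost their call (limma adjusted p = 0.0607, 0.164 and 0.0974), at 5 TPM Gm16569 and Psma8 did (0.0696 each), and without any 1 CBL mutant or CBL/RUNX1 mutant library Gm16569 did (0.0523 to 0.0575).

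The 80 genes separated higher became 361 at a gap of 0.5, 7 at a gap of 2, 138 without scaling, 220 at pseudocount 0.1, 19 at pseudocount 5 and 53 at 5 TPM, and 122 to 830 with 1 library left out. The 92 separated lower became 338, 23, 52, 184 and 47 under the first 5 of these, and 123 to 774 with 1 library left out. Without scaling the log2 difference reversed for Cbl (0.25), Mcl1 (0.20, against -0.34) and Zfp503 (0.0627, against -0.49), and Zfp503 reversed at pseudocount 5 (0.22). With 1 library left out Cbl ran from -0.69 to 0.15, Cdkn1c from -1.78 to 2.99, Eps8l1 from -1.27 to 2.20, Kel from -3.37 to 0.0538, Prnp from -0.56 to 4.15, Sapcd1 from -0.0825 to 3.52 and Zfp503 from -3.23 to 2.32. The cause was not tested. With 2 libraries a group and unknown depth, genes near 1 TPM are the least certain.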

Other observations

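Some members separated higher lie outside the gene lists, and those given here were chosen after their values were seen. F2r, the thrombin receptor of platelets and vessels, had 33.5 and 7.08 TPM in RUNX1 mutant libraries 1 and 2, against 1.98 and 1.83 TPM in wild type libraries. Pear1, a platelet receptor that signals on contact, had 53.8 and 6.87 TPM in RUNX1 mutant libraries, against 1.56 and 1.46 TPM in wild type libraries. Both genes had the order of Itga2b, with library 1 on top. Tslp, a cytokine of barrier tissues, had 4.49 and 3.31 TPM in RUNX1 mutant libraries, against 0.629 and 0.729 TPM in wild type libraries. Sox13, a transcription factor of the SOX family, had 10.7 and 7.33 TPM in RUNX1 mutant libraries, against 1.49 and 1.88 TPM in wild type libraries. The mutant libraries were alike at Tslp and Sox13, with log2 differences from wild type of 1.24 ± 0.23 and 1.48 ± 0.22 (limma adjusted p = 0.146 and 0.112).

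On the lower side, the junction gene Dsp had both mutant libraries near 0, as Cldn1 did. Dsp, which encodes desmoplakin, was listed at 0 and 0.0670 TPM in RUNX1 mutant libraries, against 1.93 and 1.25 TPM in wild type libraries. Its limma adjusted p was 0.136, and it was picked after Cldn1 was seen. The near-identical histone genes Hist2h2aa1 and Hist2h2aa2 went opposite ways. Hist2h2aa1 had 22.6 and 16.1 TPM in RUNX1 mutant libraries, against 3.62 and 3.90 TPM in wild type libraries, and Hist2h2aa2 had 12 and 3.42 TPM in RUNX1 mutant libraries, against 16.4 and 15.7 TPM in wild type libraries. Reads of the pair can be divided either way between the copies, so these directions are uncertain.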
